A study of Mus musculus with 6 samples.

Results

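The genes described are the aryl hydrocarbon receptor, its partner and feedback genes, its P450 targets, and other enzymes that handle foreign chemicals: Ahr, Arnt, Ahrr, Tiparp, Cyp1a1, Cyp1a2, Cyp1b1, Cyp2s1, Ephx1 and Aox1. They were chosen by symbol, and every array probe set annotated with exactly 1 gene, that gene being 1 of these 10, was taken. All 10 were measured, by 19 of the 45037 probe sets tested, and they make up 10 of 18193 genes. At postnatal day 2.5, RNA was taken from back skin, all layers together, of 6 littermates, all female, with a FVB/N/C57BL/6 mixed strain background, with 1 expression array per mouse. In 3 mice, labelled K5cre-caNrf2 (tg/tg), Cre expressed in basal keratinocytes (keratin 5 promoter) was combined with caNrf2, an always active variant of the stress-response factor Nrf2. The other 3, labelled K5cre-wt (tg/wt), are the controls and are read here as carrying the Cre alone, so that both groups share it. The labels call all 6 arrays weak without saying in what. The transgene acts in keratinocytes, whereas the RNA is that of every cell in the skin. In such RNA, fewer cells of a type and less RNA per cell cannot be told apart.

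The aryl hydrocarbon receptor is a ligand-activated transcription factor that waits in the cytoplasm bound to chaperones. When a planar aromatic compound or a tryptophan derivative binds, it enters the nucleus, pairs with Arnt and binds DNA at xenobiotic response elements, which switches on Cyp1a1, Cyp1a2, Cyp1b1 and the feedback genes Ahrr and Tiparp. In skin the receptor is known for chloracne, the acne-like disease caused by dioxin, and for its part in the maturation of keratinocytes. Nrf2 binds antioxidant response elements, and some detoxification genes answer to both factors, so the question put to these data is which members of the receptor axis differ in skin with an always active Nrf2 in keratinocytes.

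The promoter windows of 3 members are shown. They are Cyp1a1 and Ephx1, the only members whose brightest probe set separated the groups, and Ahrr, the feedback gene with the most receptor motif cores. Each window runs from 250 bases before to 50 bases after a transcription start, taken from RefSeq on GRCm38.p6, at chr9:57697363-57697662, plus strand, at chr1:181017520-181017819, minus strand, and at chr13:74292282-74292581, minus strand. Capitals mark the xenobiotic response element core GCGTG or the antioxidant response element core TGACNNNGC, on either strand.
Cyp1a1: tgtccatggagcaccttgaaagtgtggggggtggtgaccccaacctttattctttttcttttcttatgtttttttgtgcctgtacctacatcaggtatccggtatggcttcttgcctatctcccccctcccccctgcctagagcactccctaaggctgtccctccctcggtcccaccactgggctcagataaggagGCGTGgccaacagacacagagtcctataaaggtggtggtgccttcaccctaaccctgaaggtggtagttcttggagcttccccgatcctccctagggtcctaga
Ephx1: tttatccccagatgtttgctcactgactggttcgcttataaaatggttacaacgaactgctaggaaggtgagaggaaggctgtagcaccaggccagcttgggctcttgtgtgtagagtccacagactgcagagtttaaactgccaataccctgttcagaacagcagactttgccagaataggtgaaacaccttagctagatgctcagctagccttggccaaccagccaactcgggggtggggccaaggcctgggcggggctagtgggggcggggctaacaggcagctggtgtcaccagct
Ahrr: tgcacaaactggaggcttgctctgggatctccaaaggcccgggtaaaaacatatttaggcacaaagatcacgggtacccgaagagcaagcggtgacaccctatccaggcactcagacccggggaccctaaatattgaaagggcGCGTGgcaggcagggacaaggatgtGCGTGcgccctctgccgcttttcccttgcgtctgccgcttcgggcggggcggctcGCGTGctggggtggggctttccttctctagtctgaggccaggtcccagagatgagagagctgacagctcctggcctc

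Of the 10 members, 9 had a window in that table (Ahr had none), and 6 of these 9 windows held GCGTG, against 32.4% of all 32851 windows. Ahrr held it 3 times and Cyp1a1, Cyp1b1, Tiparp, Arnt and Aox1 once each, while those of Cyp1a2, Cyp2s1 and Ephx1 did not hold these letters. The antioxidant core was found in the window of Arnt alone, 2 times, and in 12.4% of all windows. None of the searched hits overlapped each other in these windows. A match is a description of the letters and no evidence of binding, and elements farther away are not covered.

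None of the 10 members differed between caNrf2 and control skin past the threshold over all genes (limma, Benjamini-Hochberg adjusted p under 0.05), where 0.374% of the genes tested were called. At an unadjusted p under 0.05 there were 2 members, Ephx1 and Cyp1a1, against 8.09% of all genes. Ephx1 was higher on every caNrf2 array, as were 6.23% of all genes, and Cyp1a1 was lower on every caNrf2 array, as were 6.88%. In the fit of all probe sets, 0 of the 19 member probe sets were called, against 0.24% of probe sets. There, 3 had an unadjusted p under 0.05, a share that was not counted over all probe sets. The median log2 difference of the members was 0.01, beside -0.01 over all genes. The widest bounds of the members' 95% intervals were a 1.51-fold level for Ephx1 and a 0.660-fold level for Cyp1a1. These intervals are per gene and not adjusted for the number of genes.

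**Figure D1:**
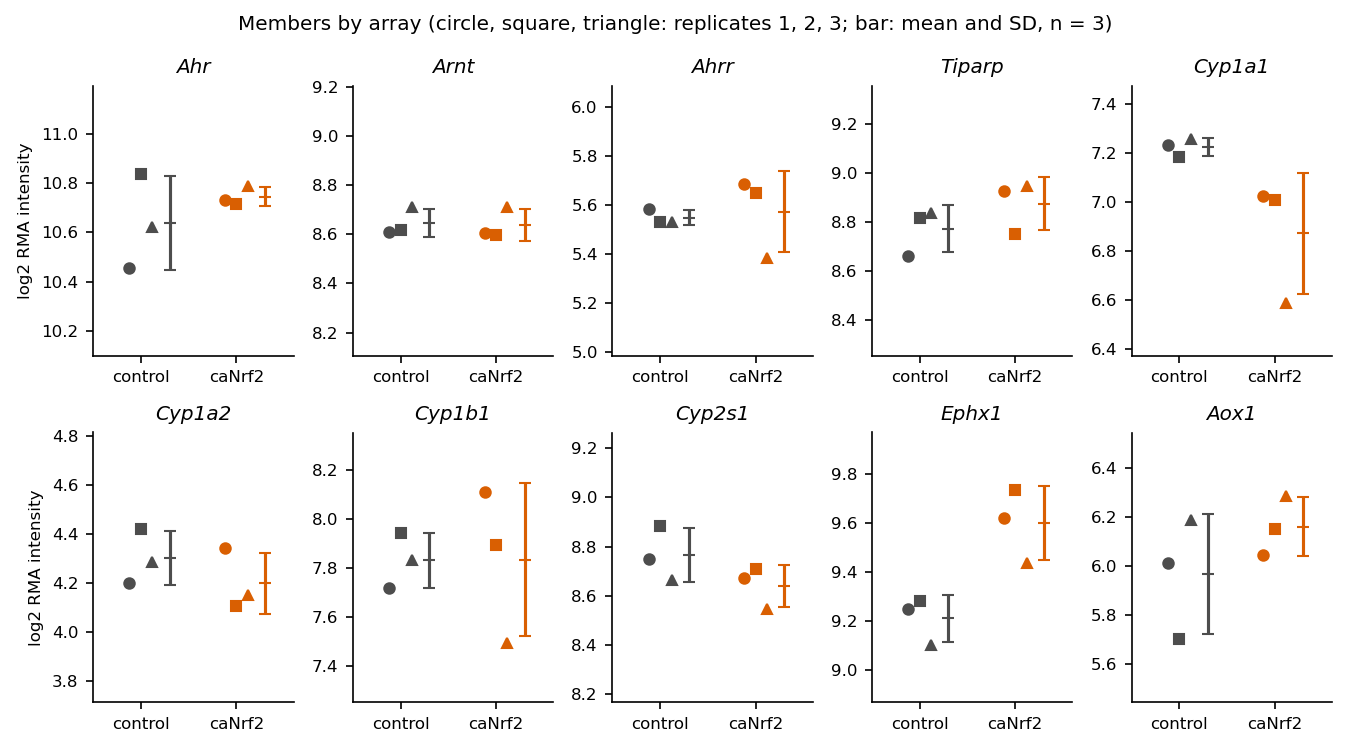
log2 RMA intensity of each member on each array, with 1 panel per gene; the panels span the same range around different centres, points are arrays and bars are the mean and SD of 3. The 3 caNrf2 points lie above the controls for Ephx1 and below them for Cyp1a1, and overlap them for the other 8 genes.

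Ahr encodes the receptor itself. Its brighter probe set read 1404, 1831 and 1575 intensity units on control arrays 1 to 3 and 1700, 1682 and 1769 on caNrf2 arrays 1 to 3. The controls spread wider than the caNrf2 arrays and enclosed 3 of 3 of them. The log2 level was 10.64 ± 0.19 in control and 10.75 ± 0.04 in caNrf2 skin (mean ± SD, n = 3), a difference of 0.11 ± 0.10 (SE; adjusted p = 0.835). The second Ahr probe set differed by 0.08 ± 0.07 (adjusted p = 0.781 over all probe sets), in the same direction. Arnt, the partner that the receptor needs on DNA and that also serves the hypoxia factors, read 391, 392.9 and 419.6 units in control and 389.6, 386.9 and 419.8 in caNrf2 skin, values that lie on top of each other. Its log2 difference was -0.01 ± 0.07 (adjusted p = 0.992), with a 95% interval from a 0.889-fold to a 1.11-fold level. All 5 Arnt probe sets had differences below 0, from -0.08 to -0.01, and none was called, although on 2 of the dimmer ones every caNrf2 array lay below every control (by 0.08 and 0.04). On its brightest probe set Arnt differed by less than the SD of either group. The difference of the brighter Ahr probe set was smaller than the SD among controls (0.19) but larger than that among caNrf2 arrays (0.04).

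Ahrr encodes a repressor that competes with the receptor for Arnt, and Tiparp an ADP-ribosyltransferase that marks the receptor for breakdown. Both are made when the receptor is active. Ahrr read 48.02, 46.27 and 46.2 units in control and 51.46, 50.23 and 41.8 in caNrf2 skin, so caNrf2 arrays 1 and 2 lay above and array 3 below all controls. The log2 difference was 0.02 ± 0.09 (adjusted p = 0.976). It is negative without caNrf2 array 1 (-0.03) or 2 (-0.01), and with array weights (-0.05). Tiparp read 405, 450.8 and 457.4 units in control and 486.2, 430.7 and 493.3 in caNrf2 skin, and the groups overlapped through caNrf2 array 2. Its log2 difference was 0.10 ± 0.08 (adjusted p = 0.810; a 1.07-fold level, 95% interval 0.944 to 1.22). The other two Tiparp probe sets differed by 0.11 each, so all 3 were higher by a like amount, and none was called.

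Cyp1a1, a monooxygenase of polycyclic aromatic compounds and the standard readout of the receptor, was lower on all caNrf2 arrays without passing the threshold. It read 150.6, 145.5 and 153.1 units in control and 130.1, 128.8 and 96.22 in caNrf2 skin. The controls lay close together, caNrf2 arrays 1 and 2 just below them and array 3 well apart. The log2 level was 7.23 ± 0.04 in control and 6.87 ± 0.25 in caNrf2 skin, a 0.783-fold level (95% interval 0.660 to 0.930; unadjusted p = 0.00993, adjusted p = 0.416). Without caNrf2 array 3 the log2 difference shrank from -0.35 to -0.21 (adjusted p = 0.650), and over all alternatives it lay between -0.47 and -0.21 with adjusted p from 0.0975 to 0.839. Cyp1a2, its neighbour in the genome and chiefly a liver enzyme, read 18.38, 21.42 and 19.54 units in control and 20.29, 17.25 and 17.77 in caNrf2 skin, and the groups overlapped. Its log2 difference was -0.10 ± 0.09 (adjusted p = 0.827). This probe set is dim, brighter than 19.8% of all probe sets, and RMA values there compress a difference.

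Cyp1b1, a monooxygenase of steroids and aromatic compounds that many tissues outside the liver express, varied more among the caNrf2 animals than between the groups. Its brightest probe set read 210.2, 245.6 and 228 units in control and 275.8, 237.8 and 180.3 in caNrf2 skin, so the caNrf2 arrays held both the highest and the lowest value. The log2 SD was 0.11 among controls and 0.31 among caNrf2 arrays, and the log2 difference was 0.00 ± 0.14 (adjusted p = 0.998; 0.812 to 1.24-fold). The second probe set set the caNrf2 arrays in the same order, at 109.5, 71.44 and 57.57 units, against 74.37, 88.75 and 86.02 in control, and differed by -0.11 ± 0.19. The third, a dim one brighter than 16.1% of all probe sets, was lower on all caNrf2 arrays by 0.21 ± 0.09 (unadjusted p = 0.0365, adjusted p = 0.530 over all probe sets). With the mean of the 3 probe sets Cyp1b1 differed by -0.11. Cyp2s1, a P450 of epithelia including skin that can oxidise retinoic acid, read 430, 472.7 and 406 units in control and 407.3, 418.4 and 373.5 in caNrf2 skin. Only caNrf2 array 3 lay below every control, and the log2 difference was -0.12 ± 0.08 (adjusted p = 0.751; 0.807 to 1.04-fold). Array 3 of the caNrf2 group thus gave the lowest value of all 6 arrays for Cyp1a1, Cyp2s1, Ahrr and the brighter pair of Cyp1b1 probe sets. The same array gave the highest value for the brightest probe sets of Tiparp, Aox1 and Arnt, for Arnt by a narrow margin.

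**Figure D2:**
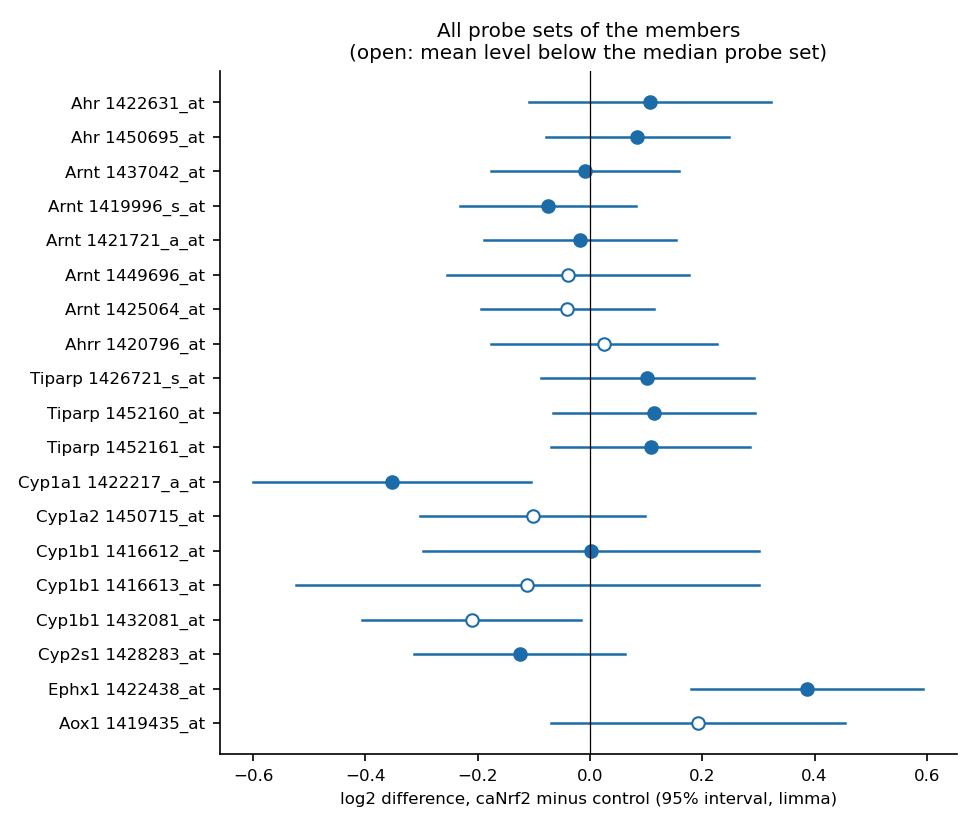
log2 difference between caNrf2 and control skin for all 19 probe sets of the members, with 95% intervals from limma; open points mark probe sets whose mean lies below that of the median probe set. Intervals of Ephx1, Cyp1a1 and the dimmest Cyp1b1 probe set leave out 0, and none of the 19 was called after adjustment.

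Ephx1 encodes microsomal epoxide hydrolase, which turns the reactive epoxides made by P450s into diols and is a known Nrf2 target. It read 608.6, 622.3 and 548.8 units in control and 786.8, 852.3 and 692.7 in caNrf2 skin, with every caNrf2 array above every control. The log2 level was 9.21 ± 0.10 in control and 9.60 ± 0.15 in caNrf2 skin, a difference of 0.39 ± 0.09 and a 1.31-fold level (95% interval 1.13 to 1.51). It ranked 147 of 18193 genes by p (unadjusted p = 0.00174) and missed the threshold (adjusted p = 0.216), as it did under all 15 alternatives, where the adjusted p lay between 0.0860 and 0.628. The smallest absolute log2 difference of any called gene was 0.40, just above that of Ephx1. Aox1, an aldehyde oxidase that oxidises aldehydes and nitrogen heterocycles with a molybdenum cofactor, read 64.52, 52.13 and 72.93 units in control and 65.97, 71.15 and 77.96 in caNrf2 skin. Control array 2 was low, and the groups overlapped. Its log2 difference was 0.19 ± 0.12 (adjusted p = 0.728; 0.952 to 1.37-fold).

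Aox1 and Cyp1a2 are abundant in liver, and 1 array differed in a liver transcript. Alb, which encodes serum albumin, read 499.8 units on caNrf2 array 3 and 125.4 to 175.3 on the other 5, while the liver transcripts Apoa1 and Ttr were no higher on that array, at 76.82 and 100.4 units, than the highest of the others. The part of this in the values of Aox1 on caNrf2 array 3 was not tested. On the labelled tissue, the keratinocyte markers Krt5 and Krt10 and the collagen Col1a1 read between 10940 and 20580 units on all arrays. Of 17 marker lists (15 of cell types in skin, 1 of liver and 1 of Y-linked genes silent in females), each given as its summed intensity, none separated the groups without overlap. The widest departures on single caNrf2 arrays from the control mean were 0.99 (log2) for the liver list and -0.46 for the erythroid list, both on array 3. The summed sebocyte markers, of which Scd1 was by far the brightest, were lower by 0.32 and 0.29 on caNrf2 arrays 2 and 3. On array 1 the sum was 0.01 higher. The list held the only called marker gene, the desaturase Scd3 (-0.81, adjusted p = 0.0294). Taken singly, Scd3 and Elovl3 (-0.37, adjusted p = 0.442) were lower on every caNrf2 array than on every control, while Scd1 and Mc5r overlapped. Whether these bear on Cyp1a1, which was lowest on array 3, was not tested.

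The other genes of the pathway were taken from 13 lists, of which 11 held no called gene. They hold 215 measured genes, counted once each, of which 4 were called, all higher in caNrf2 skin. Over all 18193 genes, 63 were called higher and 5 lower (0.374%). The lists were chosen with earlier results of these data known. As a check of the labels, Nfe2l2, which encodes Nrf2, read 657.1, 674.2 and 682.9 units in control and 964, 860.1 and 864 in caNrf2 skin (log2 difference 0.41 ± 0.07, adjusted p = 0.0539), and passed under 5 of the 15 alternatives. The second Nfe2l2 probe set, a dim one, differed by 0.24 ± 0.14 (adjusted p = 0.648 over all probe sets), with overlapping groups. Whether these probes also read the transgene was not tested.

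Some other known targets of the receptor were clearly higher in caNrf2 skin. Of 10 measured, Nfe2l2 among them, 3 were called higher and 0 lower (30%, against 0.374% of all genes). The median log2 difference of the 10 was 0.27. At an unadjusted p under 0.05 (limma) there were 6 (60%, against 8.09% of all genes), all higher. Beside the called genes and Nfe2l2, these were Ereg (0.27 ± 0.09, adjusted p = 0.461) and Epgn (0.28 ± 0.12, adjusted p = 0.588). Nqo1, a quinone reductase that both the receptor and Nrf2 induce, rose from 73.52, 59.56 and 50.83 to 702.7, 833 and 685.2 units, a log2 difference of 3.61 ± 0.13 (adjusted p = 2.70e-07). Aldh3a1, an aldehyde dehydrogenase that also answers to both, rose from 79.4, 75.98 and 81.02 to 390.9, 358.8 and 242.2 units (2.04 ± 0.15, adjusted p = 9.60e-05). Gsta2, an alpha-class glutathione S-transferase, rose from 693.4, 700.2 and 621.1 to 1096, 1013 and 1201 units (0.71 ± 0.09, adjusted p = 0.00434). All 3 are textbook Nrf2 targets as well, and each kept its call in all 15 alternatives. The Ugt1a locus, whose glucuronosyltransferases include the receptor target Ugt1a6a, is read by 3 probe sets that 8 genes share, so none of these genes can be named alone. These 3 probe sets were higher on every caNrf2 array by 0.39 ± 0.08, 0.37 ± 0.08 and 0.36 ± 0.08, without passing the threshold over all probe sets (adjusted p = 0.104, 0.147 and 0.229). The first of them read 893.4, 863.9 and 860.8 units in control and 1188, 1161 and 1073 in caNrf2 skin. It alone passed when dim probe sets were left out (adjusted p = 0.0348). The members chosen here and these targets share arrays, and the difference between Nqo1 and Cyp1a1 was not tested as such.

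**Figure D3:**
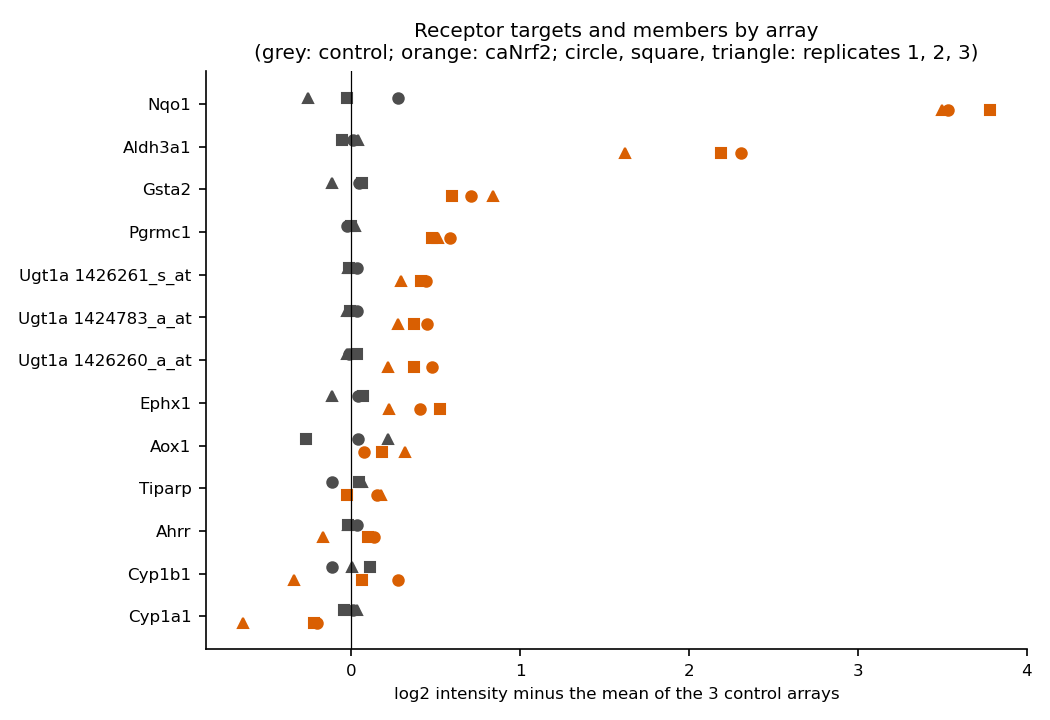
Each array's log2 intensity minus the mean of the 3 control arrays, for receptor targets, Pgrmc1 and 6 members; rows are genes or shared Ugt1a probe sets. Nqo1 and Aldh3a1 stand far to the right on all caNrf2 arrays, Ugt1a and Ephx1 stand slightly to the right, and Cyp1a1 stands to the left, most on array 3.

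P450 enzymes take electrons from partner proteins. The 9 measured partners had a median of 0.10, and Por and Fdxr, also listed, did not enter the gene fit. At an unadjusted p under 0.05 (limma) there were 3 (33.3%, against 8.09% of all genes). Among these, Cyb5r2 was lower, at -0.28 ± 0.12 with overlapping groups (adjusted p = 0.609). Only Pgrmc1, a haem-binding membrane protein that binds P450s, was called, as higher. It read 2302, 2342 and 2377 units in control and 3513, 3261 and 3339 in caNrf2 skin, with the groups far apart relative to their spread. Its log2 difference was 0.53 ± 0.07, a 1.44-fold level (adjusted p = 0.00703). The call was lost without control array 1 or 2, with adjusted p up to 0.0664, while the log2 difference stayed between 0.49 and 0.55 over the alternatives. Its RefSeq promoter window held the antioxidant core 1 time and GCGTG 0 times. The window of Nqo1, also called higher, held neither core.

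The other cytochromes P450 held 0 called genes among 69 (median -0.03), and 19 of them were at least as bright as the median probe set. At an unadjusted p under 0.05 there were 10 (14.5% of the 69, against 8.09% of all genes), 2 higher and 8 lower in caNrf2 skin. Every caNrf2 array lay above every control for 3 of the 69 (against 6.23% of all genes) and below for 11 (against 6.88%). Of the 8 lower genes 6 were dimmer than the median probe set. Cyp2c38, a dim one, had the lowest difference, -0.45 ± 0.12 (adjusted p = 0.290), and Cyp2b10, one of the brighter pair, differed by -0.29 ± 0.08 (0.315), both chosen after their values were seen. The smallest p values were those of the 2 higher genes, Cyp2b19, a keratinocyte P450 that makes epoxides of arachidonic acid, and Cyp4f39, which hydroxylates the very long fatty acids of skin ceramides. Cyp2b19 read 471.7, 547.5 and 567.7 units in control and 653.9, 685.9 and 763.5 in caNrf2 skin (log2 difference 0.41 ± 0.09, adjusted p = 0.180). Cyp4f39 read 587.1, 576.8 and 566.6 against 691.3, 754.9 and 691.8 units (0.30 ± 0.07, adjusted p = 0.203). Both stood apart without overlap, and neither passed.

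Beside Aox1, the 11 other molybdoenzymes and genes of cofactor synthesis held 0 called genes (median 0.02). At an unadjusted p under 0.05 (limma) there were 4 (36.4%, against 8.09% of all genes), 2 higher and 2 lower. Mocos, the sulfurase that completes the cofactor of aldehyde oxidases, read 303.5, 277.7 and 300.5 units in control and 366.1, 373.4 and 354.1 in caNrf2 skin (0.31 ± 0.07, adjusted p = 0.186). Aox3, a second aldehyde oxidase, went the other way at a dim level, by -0.44 ± 0.10 (adjusted p = 0.167), and it passed without caNrf2 array 1 and with array weights. Beside Ephx1, the 4 other epoxide hydrolases and relatives held 0 called genes (0 at an unadjusted p under 0.05; median -0.01), with Ephx2, the soluble enzyme, at -0.10 ± 0.09 (adjusted p = 0.847) and Ephx3 at 0.03 ± 0.07 (0.964), a value whose sign changed with re-normalisation. So of the epoxide hydrolases measured, Ephx1 alone had groups that did not overlap.

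The receptor's surroundings held no called gene either, in limma over all genes. Of the chaperones listed only Hsp90aa1 entered the gene fit, with 0.03 ± 0.10 (adjusted p = 0.974). Its sign turned without some single arrays. Probe sets shared by Ptges3, also listed, and Ptges3-ps differed by 0.18 ± 0.08 and 0.12 ± 0.08. Neither was called (adjusted p = 0.568 and 0.718 over all probe sets), although the first was higher on every caNrf2 array. Of the 13 related proteins of the receptor's class (median 0.09), 3 had an unadjusted p under 0.05 (23.1%, against 8.09% of all genes). All 3 were lower in caNrf2 skin. Their smallest p values were for Npas1, a neuronal member, at -0.23 ± 0.08 (adjusted p = 0.485), and Arntl2, a clock protein, at -0.20 ± 0.08 (0.543). The second Arntl2 probe set differed by 0.02. Hif3a, the last of the 3, differed by -0.20 ± 0.08 (adjusted p = 0.553). The 9 co-regulators (0 at an unadjusted p under 0.05; median 0.06) were all slightly higher, up to 0.13 ± 0.08 for Crebbp, an acetyltransferase (adjusted p = 0.728), and 0.08 ± 0.07 for Ncoa3 (0.822). The 13 genes of tryptophan breakdown, which makes receptor ligands, had a median of -0.04, with 0 at an unadjusted p under 0.05. The smallest p values among them were for Ido2 at -0.18 ± 0.10 (adjusted p = 0.694) and Aadat at 0.20 ± 0.11 (0.708). Both were dim, and 4 of the 13 were at least as bright as the median probe set.

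Keratinocyte differentiation genes linked to the receptor, 8 in number, lay between -0.07 and 0.04 (median 0.01; 0 at an unadjusted p under 0.05), with Ovol1, a transcription factor through which the receptor acts on filaggrin, at -0.07 ± 0.09 (adjusted p = 0.889) and loricrin, Lor, at 0.04 ± 0.07 (0.926). Among 9 other xenobiotic and nuclear receptors, 0 had an unadjusted p under 0.05 (limma), and the median was -0.05. Nr1i2, the pregnane X receptor, differed by -0.21 ± 0.10 (adjusted p = 0.624). Nr1h4, the bile acid receptor, differed by 0.16 ± 0.10 (0.728), and both were dim. The 48 genes of other phase 1 and phase 2 families held 0 called genes (median 0.01). At an unadjusted p under 0.05 (limma) there were 5 (10.4%, against 8.09% of all genes). Sult1c2, a sulfotransferase, differed by -0.34 ± 0.09 at a dim level (adjusted p = 0.315) and Fmo2, a flavin monooxygenase, by 0.30 ± 0.09 (0.398). The 11 other Parp genes, relatives of Tiparp, held 0 called genes (0 at an unadjusted p under 0.05; median -0.01), with Parp11 at -0.08 ± 0.07 (adjusted p = 0.810) and Parp6 at -0.07 ± 0.07 (0.867).

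**Figure D4:**
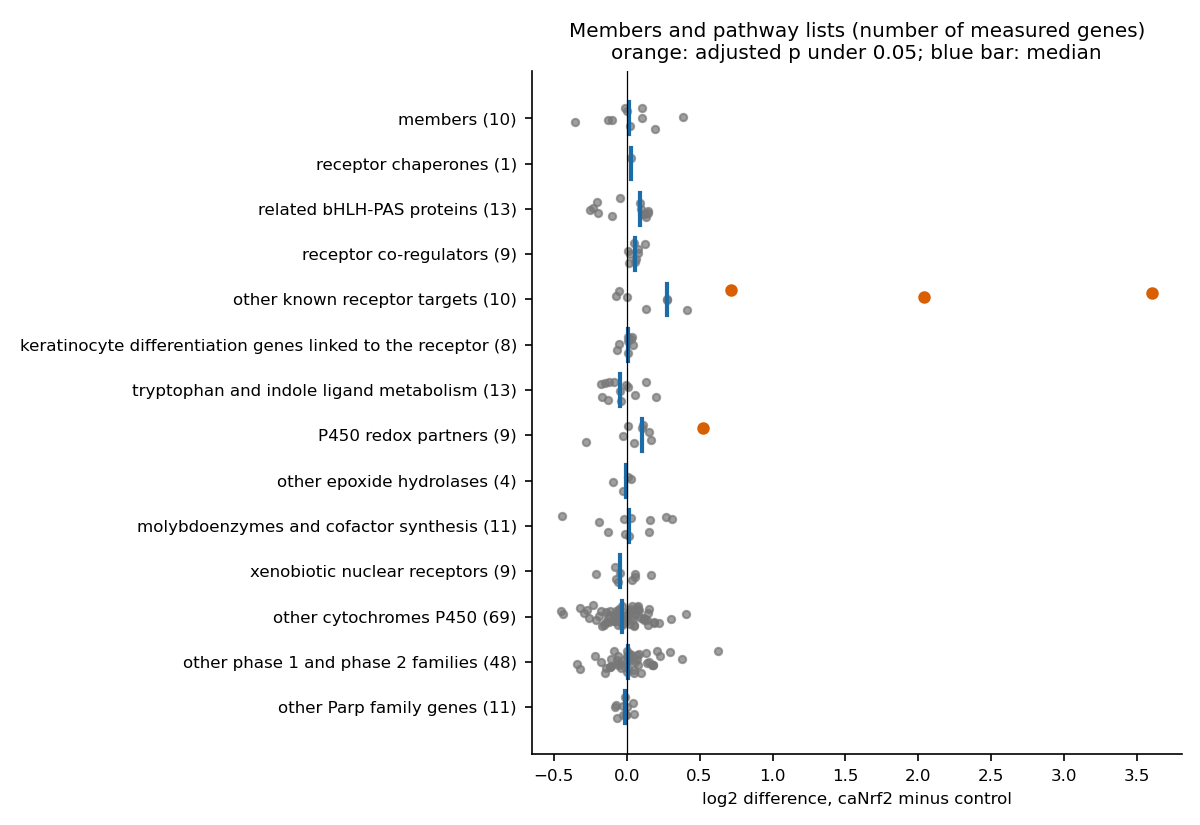
log2 difference between caNrf2 and control skin for the members and each gene of the 13 pathway lists; points are genes, orange points passed an adjusted p of 0.05, and blue bars are medians. The 4 orange points are Nqo1, Aldh3a1, Gsta2 and Pgrmc1, and the members lie between -0.35 and 0.39.

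Array medians lay between 80.9 and 82.12 intensity units, and arrays correlated at 0.996 to 0.998 within and 0.996 to 0.997 between groups. Hybridisation controls, added in fixed amounts, were 0.17 (log2) higher on the caNrf2 arrays and the 3 prime minus 5 prime difference of Gapdh was 0.03 lower, each without overlap (exact two-sided permutation p = 0.1 for both, the smallest that 3 against 3 arrays can give). Their part in the members' differences was not tested. Precision is limited by having 3 arrays in each group.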

How the data were processed

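Intensity values in the deposited table are linear and were made by the authors with RMA, per the submitters' processing notes. The sources used here do not give its version, software or filters. RMA, which quantile-normalises arrays, hides a shift shared by most genes and compresses folds near background. No detection calls or scanner files were used here.

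Values were converted to log2. The table has 45101 rows, and its 64 control probe sets were dropped. Gene names came from the platform annotation (1 symbol for 34945 probe sets, several for 932, none for 9160). For each of 18193 genes the single-symbol probe set with the highest mean was used, and a further fit covered all 45037 probe sets. The group difference was fitted by lmFit and eBayes of limma 3.58.1 (R 4.3.3) on 4 residual degrees of freedom, and p-values were adjusted over all features by Benjamini-Hochberg. SE and 95% intervals come from that fit. Replicates are separate animals. Columns of other samples numbered 0. The fit was tested on simulated data.

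The members and gene lists were chosen with earlier results of these data known. Named were all members, and from each list its called genes or else the 2 with the smallest p. Genes correlating with called members were to be named, but 0 members were called. Promoter windows are RefSeq's, GRCm38.p6. Alternatives were a replicate block, median centring, quantile and cyclic loess normalisation, an offset of 16 units, averaging a gene's probe sets, leaving out dim probe sets, an intensity trend with robust variance, array weights, and leaving out each array.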

Additional observations from a re-analysis of the deposited data

Results flagged for a closer look

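A probe set shared by Gsta1, Gsta2 and Gm3776 lies outside the gene comparison, because its annotation gives several symbols, yet it differed between the groups. It read 856.6, 929 and 822.1 units in control and 1756, 2136 and 2530 in caNrf2 skin, a log2 difference of 1.29 ± 0.12 (limma over all probe sets, adjusted p = 0.000637), larger than the 0.71 of the Gsta2 probe set. Which of the 3 genes it reads was not tested. Groups of 3 arrays were not tested for outlying samples.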

How the results depend on the processing

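No member was called under any of the 15 alternatives, and 133 of the 147 alternative values of members kept their sign, as did 133 of 145 for single probe sets. Cyp1b1 was -0.0227 under quantile and -0.0202 under cyclic loess normalisation, -0.107 with the mean of its probe sets, -0.145 with array weights and -0.136 to 0.171 without single arrays. Arnt was 0.0182 with array weights and -0.0465 to 0.0239 without single arrays, and Ahrr -0.0520 and -0.0312 to 0.119. Among single probe sets, leaving out arrays gave the same ranges for those used for Arnt, Ahrr and Cyp1b1, -0.0460 to 0.0279 and -0.137 to 0.0553 for 2 other Arnt probe sets, and -0.369 to 0.0951 for the second of Cyp1b1 (positive without caNrf2 3 alone). Hsp90aa1 ranged over -0.0721 to 0.135 without single arrays. Ephx3 was -0.0119 under quantile and -0.00384 under cyclic loess normalisation, and -0.0181 to 0.0624 without single arrays. Genes called higher numbered 63, and 40 to 71 without single arrays (40 without control 1 or 2, 41 without control 3). Those called lower numbered 5, with 2 under the offset, 3 with the mean of probe sets, 11 with array weights and 1 to 18 without single arrays (1 without control 1 or caNrf2 2, 3 without control 2, 18 without caNrf2 1). Probe sets called without single arrays were 61 to 111 higher and 1 to 25 lower. The cause of these changes was not tested. With the replicate block 56 genes were called higher and 5 lower, and no member's call changed. Same-numbered arrays correlated in their deviations from the group means at -0.245, -0.00364 and 0.0857. The highest correlations with arrays of other numbers were 0.274, 0.0956 and 0.167. With 3 arrays per group, each centred on its group mean, these values cannot settle whether the numbers pair the animals. Rescaling the arrays shifted the median over all genes by -0.0115 to 0.00634. Dim probe sets (Cyp1a2, the third of Cyp1b1) limit what can be read from them.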

Other observations

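Fmo2, a flavin monooxygenase of lung and skin, has 5 probe sets, and the following was seen after the values were known. The 4 brighter ones were higher in caNrf2 skin by 0.30, 0.32, 0.19 and 0.16 (log2), and the fifth, at a dim level, by -0.07. None was called (adjusted p from 0.399 over all probe sets). The dimmer probe set of Parp11 differed by -0.37 ± 0.10 (adjusted p = 0.328), where the brighter differed by -0.08, and the dimmest of Crebbp by 0.33 ± 0.11 (adjusted p = 0.404), where the other 3 lay between 0.07 and 0.13.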
